A study of Mus musculus with 4 samples.

Results

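The MHC class I presentation genes are 9 genes of the mouse antigen presentation pathway: H2-K1, H2-D1, B2m, H2-T23, Tap1, Tap2, Tapbp, Erap1 and Nlrc5. They were chosen by symbol, and all 9 were found among the 32285 genes of the deposited count matrices. The cells were splenic T cells of C57BL6/J mice, sorted for CD3 and CD4 and cultured for 6 hours with Dynabeads carrying antibodies to CD3 and CD28. There were 4 single-cell libraries: 1 female and 1 male library labelled Irf5-/-, a knockout of the gene for interferon regulatory factor 5, and 1 female and 1 male library labelled WT. All 4 received the same stimulation, and unstimulated cells were not analysed here. Neither the age nor the number of the mice behind a library is given in the labels, so p-values measure only the spread between these libraries. Values for single libraries are given below in a fixed order: female labelled knockout, female labelled wild type, male labelled knockout, male labelled wild type.

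MHC class I molecules carry peptides from inside the cell to its surface, where CD8 T cells and natural killer cells read them. H2-K1 and H2-D1 encode the classical heavy chains of the C57BL/6 strain, B2m encodes the light chain that every class I heavy chain pairs with, and H2-T23 encodes the heavy chain of Qa-1, a nonclassical molecule that natural killer cell receptors bind. Tap1 and Tap2 encode the peptide transporter of the endoplasmic reticulum, Tapbp encodes tapasin, which holds empty class I molecules at that transporter, and Erap1 encodes an aminopeptidase that trims peptides there. Nlrc5 encodes the transactivator of class I genes. Interferons raise the transcription of many of these genes in most cell types, and lymphocytes carry class I molecules whether resting or activated.

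The 250 bases before the RefSeq transcription start are shown for H2-K1 and B2m, because both genes moved with the interferon class of the cells in the results that follow, and because neither window reaches more than 1 base into the annotated gene. The promoter table, on GRCm38.p6, held an entry for 7 of the 9 genes, and Tap2 and Nlrc5 had none. Capitals mark matches to the searched motifs on either strand.

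H2-K1, chr17:34000348-34000597, minus strand: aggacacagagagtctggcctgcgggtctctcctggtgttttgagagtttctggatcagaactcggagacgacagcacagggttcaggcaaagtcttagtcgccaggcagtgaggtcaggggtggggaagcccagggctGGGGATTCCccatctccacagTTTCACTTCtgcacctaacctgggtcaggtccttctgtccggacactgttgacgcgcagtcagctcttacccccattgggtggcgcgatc

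B2m, chr2:122147437-122147686, plus strand: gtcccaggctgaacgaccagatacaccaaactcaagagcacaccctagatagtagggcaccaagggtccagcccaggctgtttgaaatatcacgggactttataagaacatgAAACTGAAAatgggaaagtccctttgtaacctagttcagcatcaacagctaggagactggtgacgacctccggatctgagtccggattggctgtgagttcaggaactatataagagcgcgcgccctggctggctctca

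The windows of H2-D1 and H2-T23 lie wholly or partly inside longer GENCODE gene models, so a stretch of 30 bases around the matches is given for each, with that of H2-K1 for comparison.

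H2-K1, chr17:34000429-34000458, minus strand: GGGGATTCCccatctccacagTTTCACTTC

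H2-D1, chr17:35262923-35262952, plus strand: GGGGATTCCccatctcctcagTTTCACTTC

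H2-T23, chr17:36032807-36032836, minus strand: gatcctactgcTTTCTCTTTcataaagaca

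The H2-K1 and H2-D1 stretches differed by a single substitution, A18T, counted from 1 at the 5′ end with the H2-K1 base first. Both hold a match to GGGNNTTCC, a spelling of the NF-kB site, followed by a match to GAANNGAAA, a core of the interferon-stimulated response element, on the other strand. In H2-K1 these lie 111 to 103 and 90 to 82 bases before the start, and in H2-D1 171 to 163 and 150 to 142 bases before it. B2m and H2-T23 held a match to AAANNGAAA, a second spelling of the interferon element, at 138 to 130 and 124 to 116 bases before the start. This spelling and that of the NF-kB site were settled after the windows had been seen. None of the 7 windows held TTCNNNGAA, the gamma-activated site, and the windows of Tap1, Tapbp and Erap1 held none of the 4 motifs. Tap1 also moved with the interferon class, and its window reaches only 3 bases into the gene. The windows shown in full are therefore examples that hold matches. Both strands were searched, and the motifs did not overlap in these windows. Among 32851 windows of the same length, 6.31% held GAANNGAAA, 9.37% held AAANNGAAA, 7.02% held TTCNNNGAA and 4.98% held GGGNNTTCC. A match is only a match of letters, and factor binding was not measured here.

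On GENCODE M21 (GRCm38), 6 of the genes lie on chromosome 17: Tapbp (33915899 to 33929292, plus strand), H2-K1 (33996017 to 34000347, minus), Tap1 (34187553 to 34197225, plus), Tap2 (34203527 to 34216321, plus), H2-D1 (35262730 to 35267499, plus) and H2-T23 (36029773 to 36032855, minus). B2m lies on chromosome 2 (122147686 to 122153083, plus), Nlrc5 on chromosome 8 (94434356 to 94527272, plus) and Erap1 on chromosome 13 (74639568 to 74693201, plus). On the opposite strand, Tap1 overlaps Psmb9, B2m overlaps Patl2 and Erap1 overlaps Cast, and Tapbp overlaps Zbtb22 on its own strand. The use of strand in counting is not given in the sources used here, so reads of such pairs may not be told apart. Of the last 500 bases of the longest coding transcript, 13.4% of the 90-base words of H2-T23 also occur in transcripts of other genes, and no 90-base word of the other 8 genes does. Of 50-base words, 38.1% were shared for H2-T23, 9.53% for H2-D1 and 0.443% for H2-K1, and none for the other 6 genes. The counts of H2-T23, and to a lesser degree of H2-D1, are therefore uncertain.

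After filtering, 19100 cells remained, 6178, 1814, 6543 and 4565 per library in the fixed order, with median depths of 5104.5, 8416, 6741 and 9661 UMIs, and 2 to 14 cell barcodes were shared between any pair of libraries. The check of the targeted gene went against the labels: Irf5 stood at 8.36 and 8.89 CPM (293 and 432 UMIs) in the female and male libraries labelled knockout, and at 0.94 and 1.23 CPM (15 and 55 UMIs) in those labelled wild type. A 3′ tag outside the deleted part would not show the deletion, and crossed labels would turn the sign of every difference by genotype label given here. Neither was tested, and neither was the source of the higher Irf5 counts in the libraries labelled knockout. Libraries are named throughout by their labels. The libraries also differed in Sp110, at 0.342 and 0.494 CPM in those labelled knockout against 103 and 88.4 CPM, and in Sp140, at 0.599 and 0.370 against 33.2 and 26.8 CPM. At least 1 UMI of Cd3e, Cd3d, Cd3g, Trac or Cd4 was found in 98.0% to 99.6% of cells, which marks T cells in general. In 3.35% to 7.17% of cells, 2 or more UMIs of a B, NK, myeloid, CD8 or erythroid marker were found. Droplets under 200 UMIs held 8.62%, 36.2%, 9.56% and 14.7% of the UMIs, and in them the 9 genes stood at 0.786 to 1.38 times their level in cells.

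Cells were placed in states by their own transcripts. The activation genes were Nr4a1, Nr4a3, Egr2, Egr3, Irf4, Myc and Nfkbid, and the quiescence genes included Klf2, S1pr1, Il7r and Txnip. A cell with at least 5 UMIs of these genes together was called activated when at least 0.75 of them were of activation genes, and resting when at most 0.25 were. This gave 12080 activated cells (63.2%) and 4209 resting cells (22%); 1547 were intermediate and 1264 had too few UMIs to class. Of 17836 classed cells, 316 lay within 0.05 of the resting limit and 556 within 0.05 of the activated limit, so the states are ranges of 1 score. A cell was called interferon-high with at least 3 UMIs of Ifit1, Ifit3 and Isg15 together, which are transcripts that type I interferon raises. Interferon-high cells made up 24.3%, 29.3%, 20.01% and 13.6% of resting cells and 6.50%, 5.82%, 4.89% and 2.79% of activated cells. Resting cells were shallower than activated ones in every library, with medians of 3361 to 6104 UMIs (not interferon-high) against 5936 to 11109. Droplets under 200 UMIs held the 3 interferon genes at 62.5 to 189 CPM together, against 23.2 to 54.1 CPM in cells that were not interferon-high; the part of free RNA in the class was not tested. Each class held at least 71 cells in each library.

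In activated cells that were not interferon-high, 8 of the 9 genes took a smaller share of the transcripts than in resting cells, and Erap1 took a larger one. All 9 passed the edgeR quasi-likelihood test with Benjamini-Hochberg adjustment in a comparison where 83.1% of 10594 genes did, 41.5% lower and 41.7% higher, so the count itself says little about these genes. In none of the 9 did the 4 resting values overlap the 4 activated ones, which also held for 76% of all genes. Levels are given as CPM, the summed UMIs of a class per 1000000 UMIs of its library size after TMM scaling.

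Among the heavy and light chains, H2-K1 stood at 2233, 2083, 2189 and 2084 CPM in resting cells and at 1421, 1231, 1444 and 1315 CPM in activated cells. Every activated library lay below every resting library, and the log2 difference was -0.59 (SE 0.031), with an edgeR adjusted p of 2.4e-10. H2-D1, the partner classical chain, stood at 1594, 1532, 1576 and 1574 CPM against 1023, 913, 1017 and 971 CPM, a log2 fold change of -0.60 (SE 0.032). B2m, which pairs with both, stood at 2708, 2499, 2445 and 2569 CPM against 1680, 1541, 1556 and 1527 CPM, a log2 fold change of -0.62 (SE 0.027). The 3 genes of the classical class I molecule thus had log2 differences within 0.03 of each other. H2-T23, the Qa-1 heavy chain, fell further than any other of the 9, from 592, 620, 546 and 501 CPM to 154, 170, 151 and 165 CPM, 3.33-fold lower (log2 -1.73, SE 0.056; adjusted p = 1.1e-12, edgeR).

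In the transport and loading steps, Tap1 stood at 274, 286, 271 and 273 CPM in resting cells and at 161, 191, 169 and 138 CPM in activated cells (log2 -0.68, SE 0.059). Tap2, its partner in the transporter, stood at 169, 175, 126 and 132 CPM against 54.7, 55.7, 44.5 and 47.8 CPM, 2.77-fold lower (log2 -1.47, SE 0.056). The transporter subunits therefore differed in size of change, and their 95% intervals, -0.81 to -0.55 for Tap1 and -1.59 to -1.35 for Tap2, did not meet. Tapbp stood at 285, 294, 270 and 253 CPM against 108, 121, 109 and 111 CPM, 2.31-fold lower (log2 -1.21, SE 0.051). Nlrc5, the transactivator, stood at 77.0, 81.6, 73.6 and 63.8 CPM against 49.3, 58.5, 47.3 and 42.4 CPM (log2 -0.52, SE 0.058), the smallest fall. Erap1, the trimming enzyme, went the other way, from 55.0, 40.8, 44.5 and 43.9 CPM to 100, 106, 98.3 and 107 CPM, 2.34-fold higher (log2 1.23, SE 0.076; adjusted p = 1.5e-09, edgeR).

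**Figure D1:**
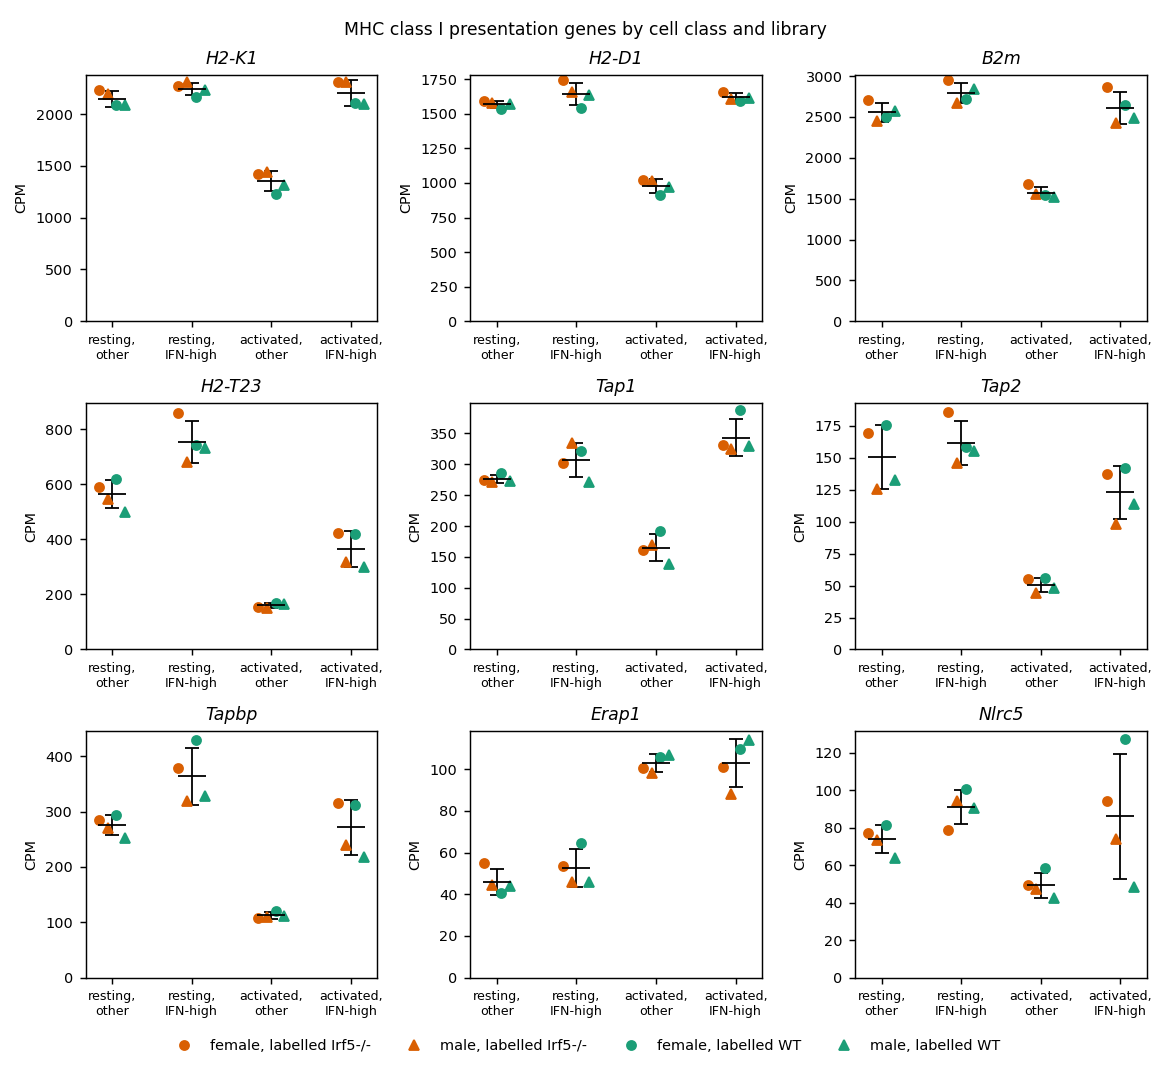
Level of each gene in CPM (vertical axis, from 0) in 4 cell classes (horizontal axis): resting and activated cells, each split into interferon-high (IFN-high) and other cells. Points are the 4 libraries, and bars give the mean and SD; the activated, other class is the lowest for 8 genes, whereas both activated classes of Erap1 lie near 103 CPM and both resting classes near 50.

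These are shares of a cell's transcripts, and activated cells held more transcripts. In UMIs per cell, the ratio of activated to resting cells was 0.99 ± 0.066 for H2-K1, 0.99 ± 0.051 for H2-D1, 0.97 ± 0.037 for B2m, 0.94 ± 0.098 for Tap1 and 1.05 ± 0.055 for Nlrc5 (mean ± SD of 4 libraries). In single libraries the ratios of these 5 genes lay between 0.822 (Tap1) and 1.11 (Nlrc5). The ratio was 0.65 ± 0.055 for Tapbp, 0.54 ± 0.050 for Tap2 and 0.45 ± 0.059 for H2-T23, below 1 in all 4 libraries, and 3.58 ± 0.56 for Erap1. With library size in place of TMM factors, the median of all genes moved by -0.23 and the members by the same amount, and no direction changed: H2-K1 then stood at -0.82 and Erap1 at 1.00. Interferon-responsive genes outside the rule (Ifit2, Ifi44, Usp18, Rsad2, Irf7, Oasl2, Rtp4, Zbp1 and Bst2) were also lower in these activated cells: they summed to 750 CPM on average in resting cells and 160 CPM in activated cells, and 8 of 9 fell. B cell markers summed to 67.2 to 490 CPM in resting cells and 15.6 to 20.1 CPM in activated cells; without cells carrying markers of other types all 9 calls remained.

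Within activated cells, the interferon-high cells had higher levels of 8 of the 9 genes, and Erap1 did not differ beyond its error. In this comparison 18% of 9651 genes were called higher and 32.9% in either direction. For 7 of the genes every interferon-high value lay above every other value, as for 14.1% of all genes; Nlrc5 and Erap1 overlapped.

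Tapbp stood at 315, 311, 240 and 219 CPM in interferon-high activated cells, 2.55-fold above the other activated cells (log2 1.35, SE 0.080; adjusted p = 1.2e-10, edgeR). Tap2 stood at 137, 142, 98.1 and 114 CPM, also 2.55-fold higher (log2 1.35, SE 0.085). H2-T23 stood at 423, 421, 318 and 298 CPM, 2.41-fold higher (log2 1.27, SE 0.077). Tap1 stood at 331, 387, 325 and 329 CPM (log2 1.15, SE 0.064). The classical molecule moved together again: H2-K1 stood at 2314, 2102, 2307 and 2093 CPM (log2 0.79, SE 0.039), H2-D1 at 1658, 1594, 1610 and 1616 CPM (log2 0.81, SE 0.042) and B2m at 2863, 2648, 2427 and 2489 CPM (log2 0.81, SE 0.040). Nlrc5 varied most between libraries, at 94.5, 127, 73.9 and 48.6 CPM, from 44 UMIs in the male library labelled wild type (log2 0.85, SE 0.12; adjusted p = 1.5e-05, edgeR). Erap1 stood at 101, 110, 87.9 and 114 CPM, with a log2 difference of 0.07 (95% interval -0.10 to 0.25; adjusted p = 0.53, edgeR).

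**Figure D2:**
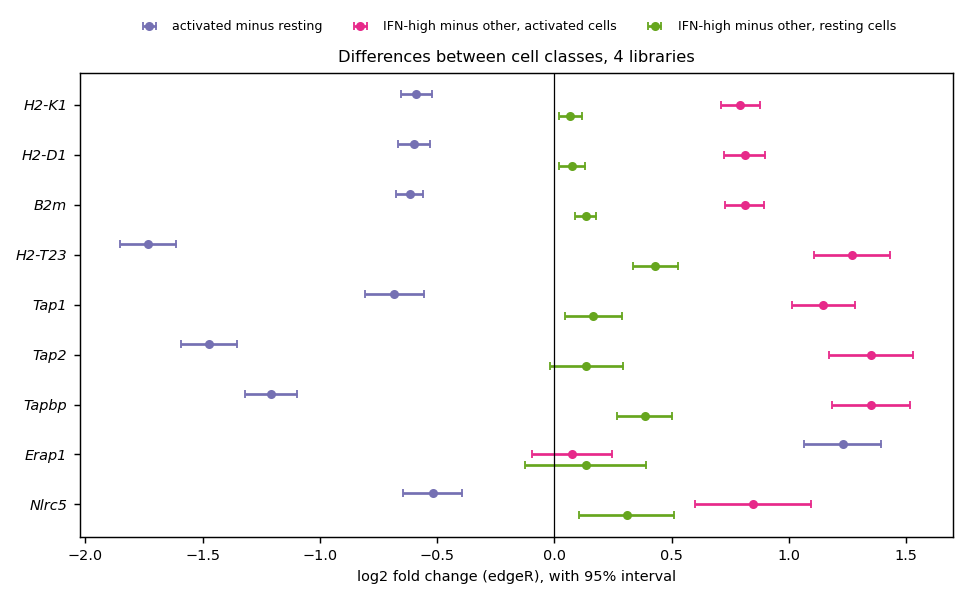
Log2 fold changes from edgeR (horizontal axis) with 95% intervals for each gene, for activated minus resting cells and for interferon-high (IFN-high) minus other cells within each state. For 8 genes the activated-state interferon difference lies well to the right of the resting-state one, and Erap1 is the gene that lies to the right of 0 between states.

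Interferon-high activated cells also carried more activation transcripts than other activated cells, with medians of 46.2 to 64.1 UMIs of the activation genes per 10000 UMIs against 21.9 to 25.4. The quiescence genes were also more abundant in them, summing to 148 to 259 CPM against 88.9 to 100.4 CPM, and to 2341 to 3028 CPM in resting other cells; their part in the result was not tested. The median depth of interferon-high activated cells was lower in every library, 5011 to 9262 against 5936 to 11109 UMIs. Among activated cells that were not interferon-high, the genes also stood higher where activation transcripts were more abundant. H2-K1 had 1077 ± 110 CPM, here scaled by library size alone, in cells with under 20 activation UMIs per 10000 and 1962 ± 166 in cells with 60 or more (mean ± SD, 4 libraries). Tap1 had 97.6 ± 17.5 and 357 ± 38.4, and H2-T23 had 127 ± 6.98 and 254 ± 16.6. Erap1 had 83.3 ± 2.68 and 115 ± 7.41. So over activated cells without the interferon class, all 9 genes were higher in the cells richest in activation transcripts, with no overlap between the 4 libraries of the lowest and highest bin, where 21.9% of 9651 genes were higher without overlap.

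Cells with 50 to 100 activation UMIs per 10000 were compared separately, since there the medians were near each other (68.1 to 75.4 in interferon-high cells, 65.2 to 67.4 in the others). In that window the same 8 genes passed the test, where 11.7% of 6374 genes were called higher, with log2 differences of 0.57 for H2-D1, 0.61 for H2-K1 and Tap1, 0.62 for B2m, 0.75 for Nlrc5, 1.09 for Tap2 and H2-T23 and 1.12 for Tapbp. The value of Tap1 thus moved from 1.15 over all activated cells to 0.61 in the window, whereas that of Tapbp moved from 1.35 to 1.12. This window held as few as 24 interferon-high cells in the female library labelled wild type.

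**Figure D3:**
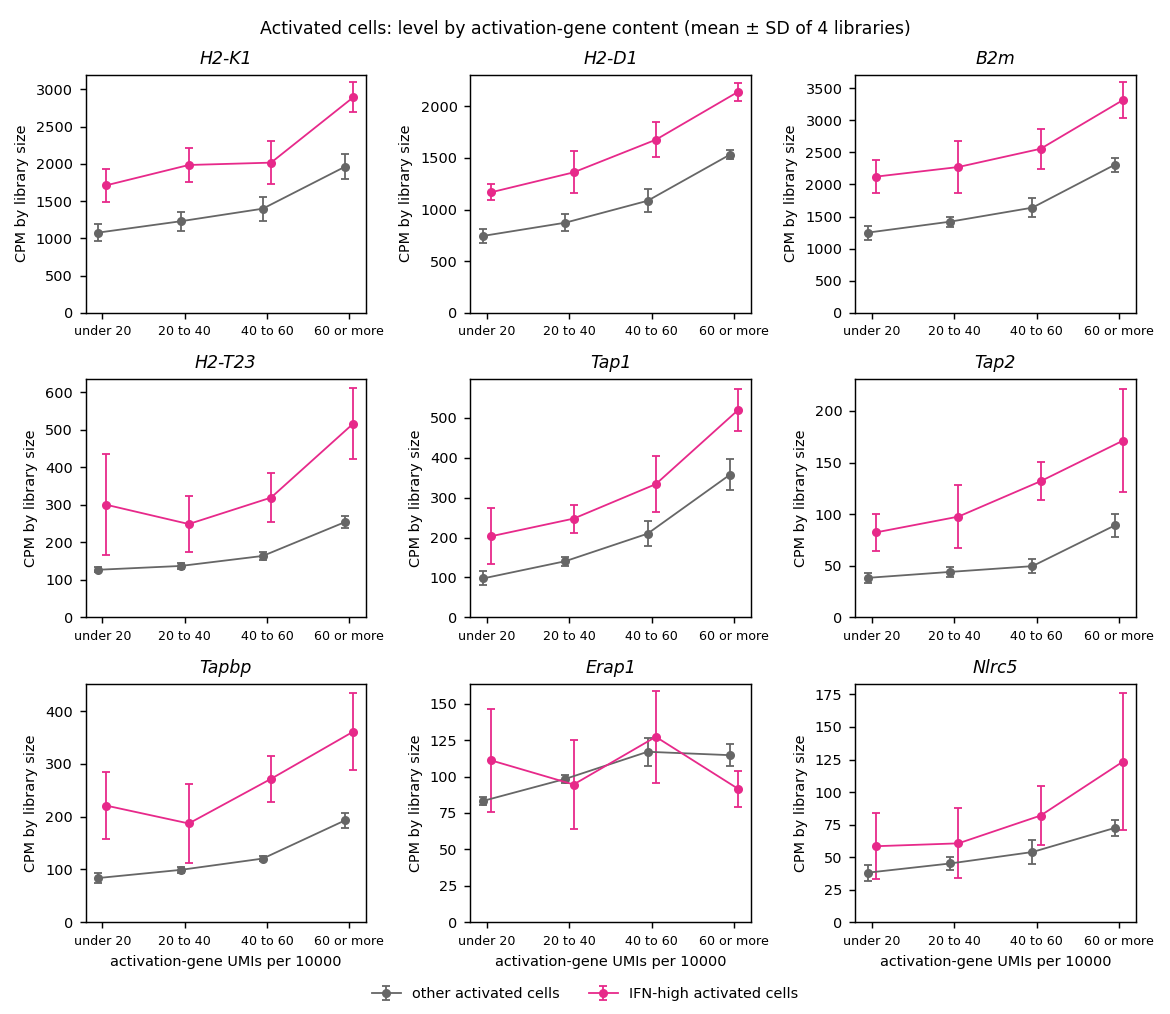
CPM by library size (vertical axis, from 0) of each gene in activated cells, by activation-gene UMIs per 10000 (horizontal axis), for interferon-high (IFN-high) and other cells; points are means and bars SDs of 4 libraries. H2-K1 goes from 1077 to 1962 in the other cells and from 1712 to 2894 in the interferon-high cells, and the Erap1 means of the classes cross, at 111 in interferon-high against 83.3 in other cells in the lowest bin and 91.6 against 115 in the highest; the smallest bin held 8 cells in 1 library.

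In resting cells the interferon class went with smaller differences, and 3 of the 9 genes passed the test, where 2.4% of 8150 genes were called higher and 3.39% in either direction. H2-T23 rose from 592, 620, 546 and 501 CPM to 861, 744, 681 and 733 CPM (log2 0.43, SE 0.046; adjusted p = 7.3e-07, edgeR). Tapbp rose to 379, 429, 318 and 328 CPM (log2 0.38, SE 0.056; adjusted p = 7.0e-05, edgeR). For both, the interferon-high values lay above all other resting values, as for 3.37% of all genes. B2m rose to 2947, 2717, 2666 and 2842 CPM, 1.10-fold (log2 0.13, SE 0.022; adjusted p = 2.7e-04, edgeR), with overlap between the groups but a higher value in all 4 libraries. Without the library term the calls of B2m (adjusted p = 0.57) and Tapbp (adjusted p = 0.070) were lost, and with the interferon class set on cells thinned to 2000 UMIs that of B2m was lost (adjusted p = 0.30, edgeR).

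The other 6 genes had log2 differences of 0.07 for H2-K1, 0.08 for H2-D1, 0.17 for Tap1, 0.14 for Tap2, 0.31 for Nlrc5 and 0.13 for Erap1. Of these, the 95% intervals of Tap2 (-0.02 to 0.29) and Erap1 (-0.12 to 0.39) held 0. H2-K1 stood at 2267, 2165, 2308 and 2229 CPM, above the other resting cells of the same library in all 4 libraries, but with an adjusted p of 0.16 (edgeR). Erythroid markers reached 13075 CPM in the interferon-high resting cells of 1 library and 0 in another, and myeloid markers there summed to at most 1.51 CPM with Lyz2, Itgam and Csf1r at 0; leaving out cells with markers of other types changed no call among the 9 genes.

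The difference between the states was itself tested. The interferon-high difference was larger in activated than in resting cells for 8 of the 9 genes, where 11.4% of 8746 genes were called higher in this test and 18.5% in either direction. The difference of log2 differences was 1.13 (SE 0.10) for Tap2, 0.90 (SE 0.094) for Tap1, 0.88 (SE 0.10) for Tapbp and 0.75 (SE 0.10) for H2-T23. It was 0.65 (SE 0.051) for H2-D1, 0.64 (SE 0.049) for H2-K1 and 0.60 (SE 0.048) for B2m. Nlrc5 had 0.47 (SE 0.16; adjusted p = 0.042, edgeR), a call that ended without the female library labelled knockout (0.29, adjusted p = 0.37), without the female library labelled wild type (0.35, adjusted p = 0.19) or without the male library labelled knockout (0.55, adjusted p = 0.10). Erap1 had -0.16 (SE 0.15; adjusted p = 0.52, edgeR). The 9 interferon-responsive genes outside the rule also differed more in activated cells, all 9 called higher in this test, and their sum went from 160 to 981 CPM in activated cells and from 750 to 1437 CPM in resting cells. The rule genes were unlike between the states as well. Mean Isg15 went from 21.3 to 713 CPM in activated cells and from 41.7 to 348 CPM in resting cells. Ifit1 went from 2.81 to 195 CPM and from 35.1 to 414 CPM, and Ifit3 from 1.28 to 80.7 CPM and from 40.4 to 385 CPM. The part of this in the interaction was not tested.

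By level, the 4 classes fell in a different order for different genes. For H2-K1 the means were 2242 ± 60.6 CPM (resting, interferon-high), 2204 ± 123 (activated, interferon-high), 2148 ± 75.9 (resting, other) and 1353 ± 98.6 (activated, other), and the first 3 overlapped. H2-D1 and B2m had the same order of means. The first 3 classes overlapped for B2m; for H2-D1 both the activated interferon-high and the resting other values overlapped the resting interferon-high ones but not each other. Tap1 was highest in interferon-high activated cells, at 343 ± 29.6 CPM, which overlapped the interferon-high resting cells at 307 ± 27.3 CPM. H2-T23 separated all 4 classes, at 755 ± 76.0, 565 ± 52.4, 365 ± 66.2 and 160 ± 8.88 CPM for resting interferon-high, resting other, activated interferon-high and activated other cells. For Erap1 only the state separated the libraries: the activated classes had 103 ± 11.5 and 103 ± 4.24 CPM and the resting classes 52.5 ± 8.97 and 46.1 ± 6.17 CPM.

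The number of interferon transcripts per cell gave a finer scale, with every cell thinned to 2000 UMIs so that depth was equal. In activated cells, H2-K1 went from 1238 ± 116 CPM (library size alone) at 0 interferon UMIs through 1896 ± 158 at 1 and 2143 ± 188 at 2 to 2653 ± 86.1 at 3 to 5 and 3349 ± 443 at 6 or more. Tap1 went from 149 ± 21.5 to 560 ± 74.3 and B2m from 1439 ± 94.2 to 3622 ± 897 over the same bins. In resting cells H2-K1 lay between 2172 ± 105 and 2450 ± 433, with overlapping libraries. Other genes did climb in resting cells: H2-T23 went from 552 ± 50.8 to 920 ± 104, Tapbp from 270 ± 18.0 to 494 ± 18.6, Tap1 from 275 ± 9.11 to 388 ± 70.2 and Nlrc5 from 72.2 ± 7.66 to 131 ± 5.94. Erap1 had 47.8 ± 8.29 and 56.2 ± 24.4 in the lowest and highest resting bins and 95.7 ± 2.12 and 118 ± 50.8 in the activated ones. The highest bin held 65 activated cells in all, as few as 4 in 1 library, and 79 resting cells, as few as 10; without it, H2-K1 in activated cells still spanned 1238 to 2653.

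**Figure D4:**
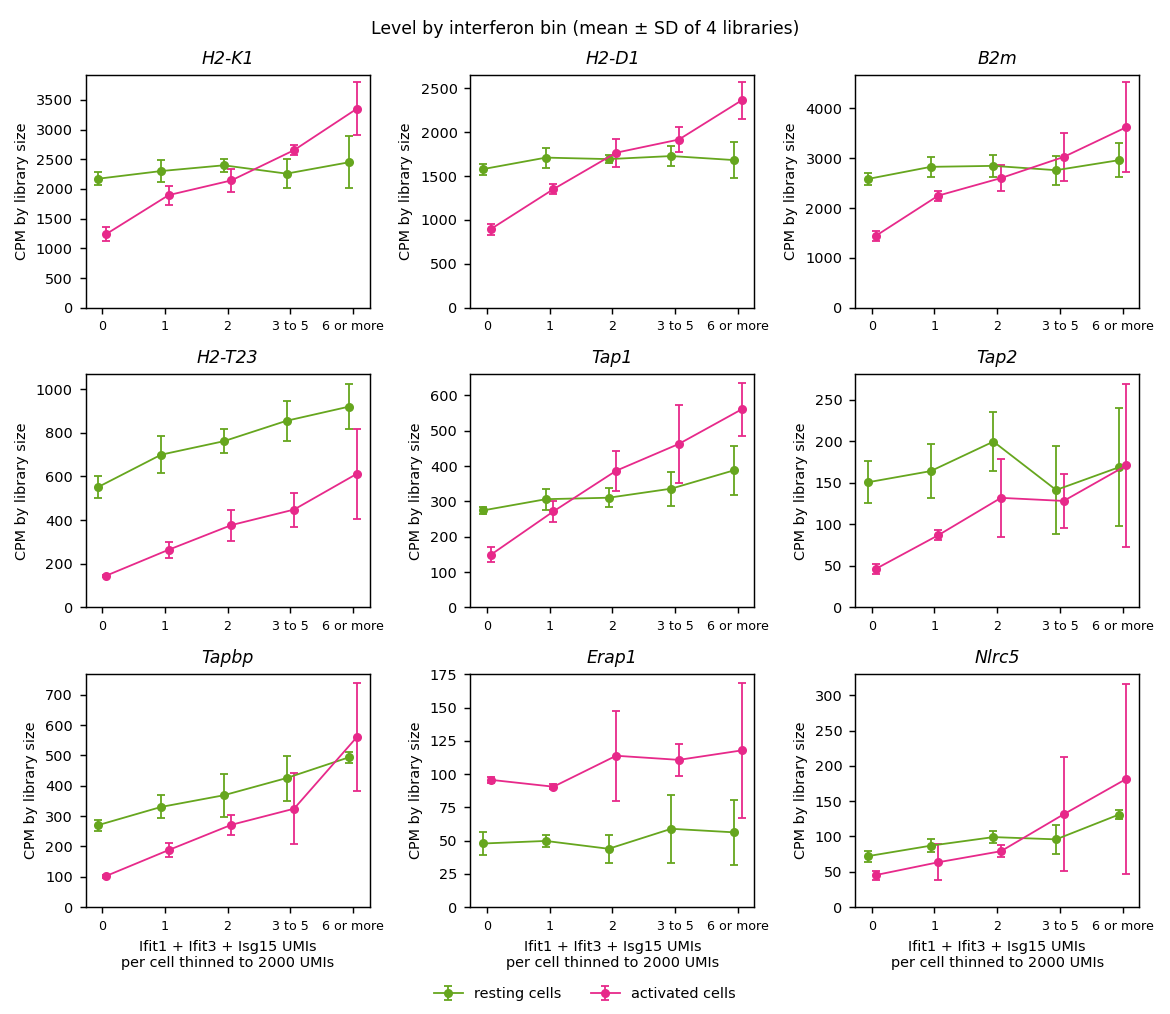
CPM by library size (vertical axis, from 0) of each gene by the summed UMIs of Ifit1, Ifit3 and Isg15 per cell after thinning to 2000 UMIs (horizontal axis), in resting and activated cells; points are means and bars SDs of 4 libraries. The activated lines of 8 genes climb from below the resting lines, H2-K1 from 1238 to 3349, and the Erap1 lines stay apart, near 50 in resting and near 100 in activated cells.

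The study set libraries labelled knockout against libraries labelled wild type. None of the 9 genes passed the edgeR test with genotype label and sex, neither over all cells, where 1.21% of 12855 genes did, nor in the resting other (0.12%), resting interferon-high (0.526%), activated other (1.09%) or activated interferon-high cells (0.617%). DESeq2 also called 0 of 9 in each. At an unadjusted p under 0.05, edgeR gave 1 of 9 over all cells and 1 of 9 in activated other cells, H2-K1 both times, where 8.005% and 7.76% of all genes were under it, and 0 of 9 in each of the other 3 classes.

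Over all cells H2-K1 stood at 1612 and 1582 CPM in the libraries labelled knockout (female, male) and at 1367 and 1417 CPM in those labelled wild type. The groups did not overlap, and the log2 difference was 0.20 (95% interval 0.04 to 0.36; adjusted p = 0.43, edgeR). H2-D1 stood at 1139 and 1108 CPM against 1011 and 1050 CPM (log2 0.13, interval -0.04 to 0.29), and B2m at 1903 and 1707 CPM against 1702 and 1672 CPM (log2 0.10, interval -0.07 to 0.26). With 1 library left out in turn and no sex term, H2-K1 ran from 0.17 to 0.22, H2-D1 from 0.10 to 0.15 and B2m from 0.02 to 0.17. For the remaining genes the intervals held 0: -0.16 to 0.20 for H2-T23, -0.16 to 0.19 for Tap2, -0.20 to 0.18 for Tapbp, -0.18 to 0.26 for Tap1, -0.22 to 0.22 for Nlrc5 and -0.27 to 0.09 for Erap1. With 2 libraries per label these intervals do not bound the difference, and that of Nlrc5 in females, given next, lay outside its interval. For 5 genes the difference had opposite signs in the sexes, with 1 library against 1 and no test: the log2 difference was -0.23 in females and 0.21 in males for Nlrc5, -0.16 and 0.24 for Tap1, -0.10 and 0.07 for Tapbp, 0.04 and -0.01 for Tap2 and -0.01 and 0.04 for H2-T23. The levels behind this were 53.7, 63.2, 52.0 and 44.8 CPM of Nlrc5, 186, 208, 188 and 159 CPM of Tap1 and 151, 162, 143 and 136 CPM of Tapbp, so that for these 3 genes the libraries labelled wild type were the highest and the lowest of the 4.

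Within the classes the largest differences by genotype label were those of Erap1 in interferon-high activated cells (log2 -0.28, interval -0.66 to 0.10) and in resting other cells (0.18, interval -0.14 to 0.50), opposite in sign and both with 0 inside the interval. With 1 library left out in turn, which leaves 1 labelled group with a lone library and was fitted without the sex term, they ran from -0.38 to -0.16 and from 0.07 to 0.37, and Nlrc5 in interferon-high activated cells ran from -0.64 to 0.77: it was lower in the female library labelled knockout than in its wild-type counterpart (94.5 against 127 CPM) and higher in the male one (73.9 against 48.6 CPM). H2-K1 was 0.17 (interval 0.02 to 0.32; adjusted p = 0.51, edgeR) in activated other cells, and with library size in place of TMM factors it passed there (0.25, adjusted p = 0.042, edgeR), where the median of all genes moved by 0.076. Of the 3 interferon rule genes, Isg15 (log2 0.62, adjusted p = 0.0053) and Ifit3 (log2 0.86, adjusted p = 1.0e-04, edgeR) were called higher over all cells of the libraries labelled knockout, and Ifit1 missed the threshold (log2 0.35, adjusted p = 0.057, edgeR). The labelled groups overlapped in Isg15, at 101, 73.2, 62.3 and 33.2 CPM by library size in the fixed order, and the library labelled knockout was the higher one within each sex. Of 9 tested interferon-responsive genes outside the rule, 3 were called higher over all cells and 5 in activated other cells, where 1.21% and 1.09% of all genes were called, and 0 were called in each of the other 3 classes. The share of interferon-high cells was 11.4%, 11.9%, 9.48% and 5.85% in the fixed order (exact binomial 95% intervals 10.6 to 12.2, 10.4 to 13.5, 8.78 to 10.2 and 5.19 to 6.57, for counting error only). The labelled groups overlapped, with a difference of 1.55 percentage points (two-sided exact permutation p = 1, where 2 libraries against 2 cannot go below 0.33). After thinning each cell to 2000 UMIs the shares were 5.68%, 4.08%, 2.95% and 1.34%, higher in the library labelled knockout within each sex. With the class set from 6 UMIs they were 4.31%, 5.62%, 3.01% and 1.95%, and the difference between labels turned to -0.13 percentage points. From 6 UMIs and as counted first, the library labelled knockout was the higher one in males only. The permutation test did not use sex.

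**Figure D5:**
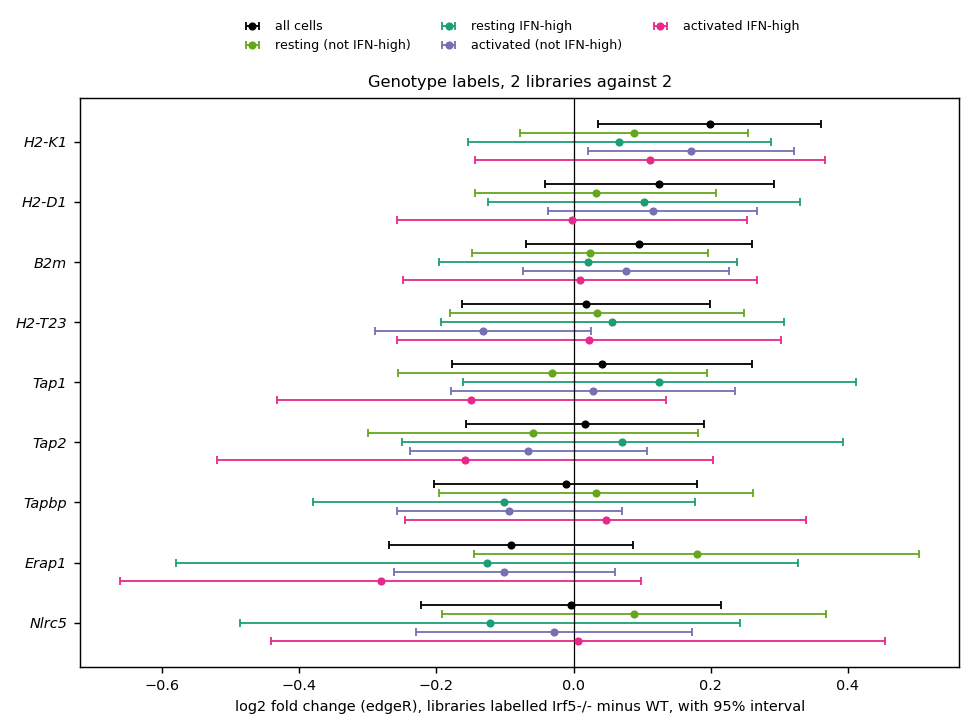
Log2 fold change of each gene (edgeR) in libraries labelled Irf5-/- minus libraries labelled WT (horizontal axis) with 95% intervals, over all cells and in the 4 cell classes, 2 libraries against 2. Nearly all intervals include 0; those of H2-K1 over all cells (0.04 to 0.36) and in activated cells that are not interferon-high (0.02 to 0.32) do not.

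The rest of the pathway was read from a list of 30 genes: nonclassical and class I-like heavy chains, immunoproteasome subunits with the proteasome activator, peptide-loading factors and regulators. H2-T10 was not found in the files. Of 27 tested between states, 19 were lower in activated cells and 7 higher, against 41.5% and 41.7% of all genes, with a median log2 difference of -1.12 against -0.01 over all genes. All 9 tested heavy chains were lower, led by Cd1d1 (log2 -4.17) and Mr1 (-3.69), which present lipids and vitamin metabolites, and by H2-T24 (-3.06) and H2-T22 (-2.45). Cd1d1 and Mr1 were rare transcripts, with 87 and 20 UMIs over all activated other cells of the 4 libraries, so their values are imprecise. The catalytic immunoproteasome subunits Psmb8, Psmb9 and Psmb10 were lower (-1.80, -1.48 and -2.10), whereas the activator subunits Psme1 and Psme2 were higher (0.67 and 1.19). Of the 5 peptide-loading factors, 2 were higher and 3 lower. The lectin chaperones Canx and Calr were higher (1.54 and 0.87), as Erap1 was. Pdia3, Lnpep and Tapbpl fell, from means of 186, 131 and 59.4 CPM to 112, 65.0 and 42.5 CPM. Of 8 tested regulators, 4 were lower, among them Irf2 (-1.66), Rfxank (-1.33) and Irf1 (-1.14), and 3 were higher, the NF-kB subunits Nfkb1 and Rela (2.61 and 1.00) and Rfx5 (0.68).

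Between interferon-high and other activated cells, 17 of 26 were higher, against 18% of all genes, and 2 lower, with a median of 1.03 against -0.02 over all genes. Cd1d1 (3.11), H2-T24 (2.41), H2-Q6 (1.78), H2-T22 (1.74) and the transcription factor Irf1 (1.63) had the largest rises, with 33 UMIs of Cd1d1 and 79 of H2-T24 over all interferon-high activated cells, and Canx (-0.45) and Calr (-0.23) were the genes that fell. In resting cells 8 of 26 were higher, against 2.4% of all genes, and 0 lower, led by H2-T24 (0.98), H2-T22 (0.46), Irf1 (0.35), Psmb8 (0.34) and Psmb10 (0.26). By genotype label, 1 of 28 was called over all cells, H2-Q6 (log2 0.42, adjusted p = 0.032, edgeR), and 1 of 26 in activated other cells, H2-Q7 (log2 0.34, adjusted p = 0.025, edgeR), both higher in the libraries labelled knockout. With 1.21% and 1.09% of all genes called in these tests, 1 call in a list of this size is near the background. H2-Q6 and H2-Q7 are closely similar paralogs, so how their reads were divided is uncertain.

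Over the 16 sums (4 libraries by 4 classes), centred within library, the 8 genes other than Erap1 followed each other, with Pearson correlations of 0.76 (Tap1 and H2-T23) to 0.99 (H2-K1 and H2-D1). Erap1 had correlations of -0.81 (H2-T23) to -0.33 (Tap1) with them. Among 7091 other genes with a mean of at least 10 CPM, those most like the mean profile of the 9 genes were Ifi208, Parp14, Irf7, Ifi213 and Ifi206 (r = 0.99 each). Closest to B2m were Irgm1, Oasl2 and Parp9 (r = 1.00, 1.00 and 0.99), and closest to H2-K1 were Parp4, H2-Q7 and H2-Q4 (r = 0.99 each). Tap1 was nearest to Stat3, Socs1 and Rnf213 (r = 0.98, 0.98 and 0.97), and Nlrc5 to Polr2a, Lgals9 and Trim56 (r = 0.96, 0.92 and 0.92). Sums of 1 library share cells, depth and free RNA, and classes were built from transcripts of the same cells, so these values describe likeness only.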

How the data were processed

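UMI counts per gene and barcode were deposited by the authors for all barcodes, with no normalization. Per the submitters' processing notes, Cell Ranger 6.0.2 and mm10 were used; per the file headers, the matrices were written by Cell Ranger 4. The annotation is not given in the sources used here. Cells had at least 2000 UMIs, at least 500 genes and at most 10% mitochondrial UMIs. Doublets were scored with scrublet in scanpy 1.11.5, which on its own marked 0.0486% to 2.05% of cells; they were kept, and left out in an alternative at 0.8% per 1000 cells. The libraries held 38334976, 28841161, 53494911 and 55850754 UMIs in the fixed order.

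Counts were summed per library and class and tested with edgeR 4.0.16 in R 4.3.3 (filterByExpr, TMM factors, glmQLFit, glmQLFTest, Benjamini-Hochberg over all genes tested, called at an adjusted p under 0.05), with library as a term between classes and sex between genotype labels. The counts behind the 9 genes ranged from 43 UMIs in a library and class (Erap1) upward; some of the other pathway genes had far fewer, which limits their precision. DESeq2 1.42.0, Python 3.11.15, numpy 2.4.6 and scipy 1.17.1 were also used. Simulated counts with known changes were used to test the edgeR script. Likeness used log2(CPM + 1). All 9 members are named whatever their values; other pathway genes are named when called, up to 5 of the largest change in each direction, with further called genes named after their values were seen. A gene of the state lists and a gene of the pathway list entered the counts but are not reported here. The members and lists were chosen with earlier results of these data known. Alternatives were scaling, filter, tool, depth, doublets, other cell types, covariates, class rules and each library left out.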

Additional observations from a re-analysis of the deposited data

Results flagged for a closer look

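The interferon-high difference in log2 CPM was larger in activated than in resting cells by the interaction term for 8 genes: H2-K1 (0.64), H2-D1 (0.65), B2m (0.60), Tap1 (0.90), Tap2 (1.13), Tapbp (0.88), Nlrc5 (0.47) and H2-T23 (0.75). Interferon-high activated cells also held more activation transcripts than other activated cells, and the part of this in the interaction was not tested.

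For Erap1, the interferon-high difference in resting cells was 0.67 on the log2 scale in the female library labelled wild type, against -0.04 to 0.06 in the other 3 libraries. Of 27 sets of 4 libraries looked at in this way, 1 stood out, and chance gives about 1 in 20.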

How the results depend on the processing

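Of the counts of members called and the difference between labels in the share of interferon-high cells, 227 values under alternatives stayed within 1.5 times or within the spread between libraries, and 4 moved. The share itself lay between 5.85% and 11.9% in single libraries, between 1.34% and 5.68% after thinning and between 1.95% and 5.62% from 6 UMIs, and the difference between labels changed sign from 6 UMIs (-0.13 in place of 1.55 percentage points). The exact permutation test cannot go below 0.33 with these libraries, so it could call neither. Of the members called higher by genotype label in activated other cells, library size without TMM factors gave 1 in place of 0. In the resting interferon comparison, the members called higher were 1 without the library term and 6 with states set at 0.6 and 0.4 (adding H2-K1, Tap1 and Nlrc5), in place of 3. Without the filter on low counts 1 member, Erap1, was called lower in the interaction (-0.45, adjusted p = 0.030, edgeR), in place of 0, and Nlrc5 was not called (0.18, adjusted p = 0.57, edgeR). H2-K1, H2-D1 and B2m stayed called there, at 0.35, 0.36 and 0.30 in place of 0.64, 0.65 and 0.60. This setting moved the median of all genes in that test by -0.28. The interaction call of Nlrc5 was also lost without the library term (adjusted p = 0.21) and with the interferon class set from 6 UMIs (adjusted p = 0.11, edgeR). In resting cells B2m missed the threshold with the class set from 6 UMIs (adjusted p = 0.061), where Nlrc5 passed (adjusted p = 0.026), and Tap1 passed with the class set after thinning (adjusted p = 0.0050). No called direction reversed. Alternatives for the interaction, the scaling by library size and the windows of activation transcripts were chosen after seeing the data.

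Genes called by genotype label over all genes ranged from 7 without the sex term to 162 around 155 over all cells, from 8 to 151 around 12 in resting other cells, from 2 to 180 around 39 in resting interferon-high cells, from 10 to 286 around 126 in activated other cells and from 5 to 71 around 44 in activated interferon-high cells. The highest counts of 151, 180 and 286 were reached without the female library labelled wild type. Leaving out a library in these tests also dropped the sex term, since no residual degree of freedom would remain with it, and the lone library is assumed to vary like those of the other label. In the interferon comparisons they ranged from 110 to 503 around 276 (resting), from 1223 to 3493 around 3178 (activated) and from 947 to 3039 around 1616 (interaction). Without TMM factors the share of calls that were higher moved from 67.1% to 80% (genotype, all cells), from 50% to 76.8% (genotype, resting other), from 76.2% to 87.3% and from 25% to 36.1% (genotype, activated other and activated interferon-high), and from 61.9% to 82.4% (interaction). Without the filter on low counts it moved from 61.9% to 25.4% (interaction), from 71.0% to 56.0% and from 54.8% to 43.5% (interferon, resting and activated), and from 50% to 66.04% and from 61.5% to 50.9% (genotype, resting other and resting interferon-high). With DESeq2 it moved from 71.0% to 81.9% (interferon, resting), from 76.2% to 50% (genotype, activated other), and from 61.5% to 33.3% and from 25% to 0% (genotype, resting and activated interferon-high). The genotype tests, with sex as a term, compared libraries paired by sex.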
